A study of Mus musculus with 7 samples.

Results

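The immunity-related GTPases (IRGs) are a family of interferon-inducible GTPases of the mouse. Its 7 well-known members, Irgm1, Irgm2, Igtp, Iigp1, Tgtp1, Tgtp2 and Ifi47, were taken by symbol from the table of expression values, and they are 7 of its 17920 genes. All 7 were abundant in LPS-treated spleen, with levels between 43.93 and 514.9 FPKM (fragment counts scaled to transcript length and to the mapped fragments of the library), and no member passed the test in any comparison of genotypes or times. The level of Iigp1 relative to that of Irgm1 was higher in all 3 libraries at 6 h than in all 4 at 90 min. That ratio was chosen after the values were seen and was not tested. Of the 6 members with a listed promoter, 4 carried a GAS motif directly followed by an ISRE core near the gene start.

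RNA was sequenced from spleens of C57BL/6 mice aged 8 weeks, all of which had received lipopolysaccharide (LPS, the endotoxin of Gram-negative bacteria) by intraperitoneal injection at 20 mg/kg. The mice were wild type or lacked GdX, also called UBL4A, a ubiquitin-like protein encoded by the X-linked gene Ubl4a; the genotype is written GdX-/- or GdX-/Y in the labels, and how the allele was made is not given in the sources used here. The 7 libraries were 2 wild-type and 2 GdX-deficient spleens collected at 90 min, and 2 wild-type spleens and 1 GdX-deficient spleen collected at 6 h, and the design text counts 4 wild-type and 3 deficient mice. No spleen of a mouse without LPS was analysed here, so induction of the family by LPS could not be measured, and the differences below are between genotypes or between the 2 times. The source is labelled splenocytes, while the protocol describes RNA from smashed whole spleen.

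Interferon gamma and the type I interferons turn IRG genes on through transcription factors that bind short promoter elements called GAS and ISRE; IRF1 is one that binds ISRE elements. The effector members, Iigp1 (Irga6), Tgtp1 and Tgtp2 (both forms of Irgb6) and Ifi47 (Irgd), load onto the vacuoles of parasites such as Toxoplasma gondii and help to break them open. The regulatory members, Irgm1, Irgm2 and Igtp (Irgm3), sit on the membranes of the host cell and keep the effectors inactive there; they are known as GMS proteins after a change in the nucleotide-binding motif, against GKS in the effectors.

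All members but Iigp1 lie on chromosome 11 of the GRCm38 build. In the GENCODE annotation Irgm1 spans chr11:48861968-48871683 on the minus strand, followed after 113.6 kb by Tgtp1 (chr11:48985327-48994172, minus), after 63.0 kb by Tgtp2 (chr11:49057194-49064206, minus) and after 12.4 kb by Ifi47 (chr11:49076587-49096974, plus). Igtp (chr11:58199556-58207591, plus) and Irgm2 (chr11:58199618-58222782, plus) lie 9102.6 kb further on, and their annotated gene models overlap. All 7 are annotated as protein coding.

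Promoters of 300 bases, from 250 before the start to 50 after it, were found in RefSeq (GRCm38.p6) for 6 of the 7 members, and the 5 stretches below are shown because they hold the interferon-type motifs of the family. They are written 5′ to 3′ on the strand of the gene, and capitals mark matches to the GAS motif TTCNNNGAA and to the ISRE core, GAAA followed after any 2 bases by a further GAAA, both searched on both strands.
Irgm1, chr11:48871413-48871472, minus strand: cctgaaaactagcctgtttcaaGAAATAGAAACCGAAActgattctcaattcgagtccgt
Irgm2, chr11:58214882-58214941, plus strand: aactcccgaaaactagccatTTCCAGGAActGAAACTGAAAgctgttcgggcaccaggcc
Igtp, chr11:58199491-58199550, plus strand: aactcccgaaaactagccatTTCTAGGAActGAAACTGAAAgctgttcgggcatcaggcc
Tgtp1, chr11:48992295-48992354, minus strand: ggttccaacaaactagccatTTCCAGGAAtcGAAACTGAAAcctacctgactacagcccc
Tgtp2, chr11:49064254-49064313, minus strand: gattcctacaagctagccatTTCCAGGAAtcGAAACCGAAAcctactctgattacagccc

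In Irgm2, Igtp, Tgtp1 and Tgtp2 the GAS match and the ISRE core were separated by 2 bases, as the stretches show. RefSeq places the starts of Irgm2, Tgtp1 and Irgm1 inside the longer GENCODE gene models. For each member only the first listed promoter was searched. The GAS match began 75 bases before the RefSeq start in Irgm2, 45 before it in Igtp, 88 in Tgtp1 and 81 in Tgtp2. Irgm1 held no GAS match and 2 ISRE cores that overlapped, beginning 30 and 24 bases before its start. Ifi47 held neither motif in its 300 bases, which says only that these letters are not in that window.

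The pair of motifs was uncommon among promoters. Of 32851 mouse promoters of the same length, 2726 (8.3%) held a GAS match, 1131 (3.44%) held an ISRE core and 22 (0.07%) held both within 10 bases of each other. Those 22 belong to 21 gene symbols. They are Irgm2, Igtp, Tgtp1 and Tgtp2, the further IRG-type genes Gm12250 and Gm12185, 6 more genes of the expression table (Bst2, Ifitm3, Irf2, Lamp3, Cxcl14 and Etv6), and 9 symbols not analysed here (E030007A22Rik, Gm16675, Gm26512, Gm32670, Rab10os, the olfactory receptor genes Olfr58 and Olfr933, and Usp17lc and Usp17ld). A motif match is a description of the letters, and no binding was measured. The stretches of Irgm2 and Igtp differed at 2 of 60 bases, and those of Tgtp1 and Tgtp2 at 14. Over the whole 300 bases the aligned promoters were 74.4% identical for Irgm2 and Igtp and 70.1% identical for Tgtp1 and Tgtp2.

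**Figure D1:**
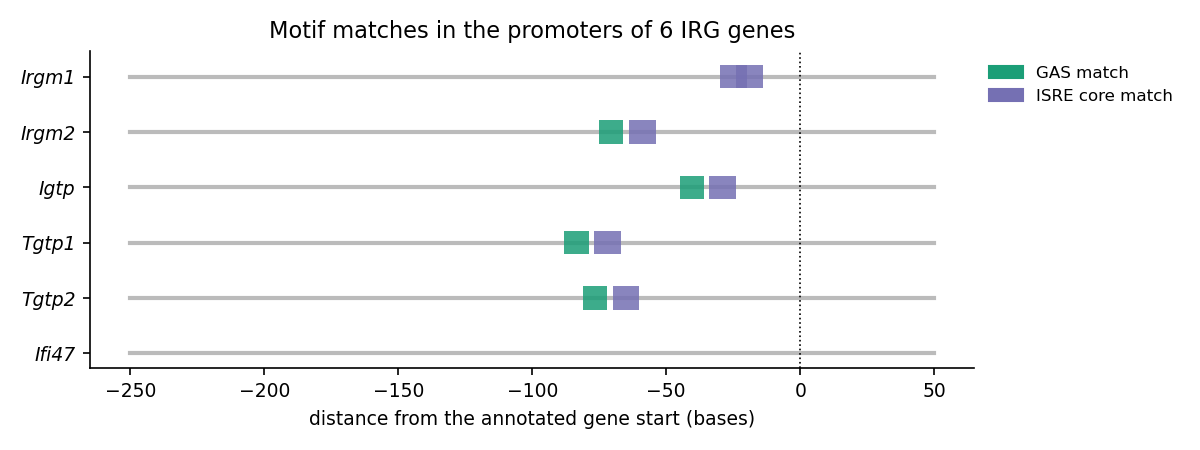
Positions of motif matches in the 300-base promoters of 6 IRG genes; the horizontal axis is the distance in bases from the RefSeq gene start, grey lines are the windows searched and coloured boxes are matches. In Irgm2, Igtp, Tgtp1 and Tgtp2 a GAS match stands directly before an ISRE core, Irgm1 holds 2 overlapping ISRE cores, and Ifi47 holds no match.

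The libraries held an estimated 18900000 to 20800000 mapped fragments, so abundant genes such as these were well sampled. The targeted gene Ubl4a was listed at 4.03 to 10.56 FPKM in the 3 GdX-deficient libraries and 5.62 to 14.01 in the 4 wild-type libraries, ranges that overlap, while Gm44504, a RefSeq gene entry that overlaps Ubl4a, was listed at 0.66 to 1.86 in the deficient and 14.52 to 51.1 in the wild-type libraries. Globin transcripts made up 7.7% to 30.9% of the summed FPKM. Summed markers of cell types also varied. Over 6 neutrophil markers the sum was 669.0 to 1060.4 FPKM in the wild-type libraries and 972.6 to 4654.4 in the deficient ones, and over 6 B-cell markers it was 499.5 to 557.3 in the wild-type libraries at 6 h against 1814.1 in the deficient one. Over 5 monocyte markers it was 547.2 to 706.3 in wild type at 6 h and 1186.7 to 1450.2 in the other libraries. No marker of these lists was at 0 in any library. In whole tissue, fewer cells of a type and less RNA per cell cannot be told apart.

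Ranked by the mean FPKM over the 7 libraries, a scale corrected for transcript length, Ifi47 stood highest at 393.69, followed by Irgm1 at 334.69, Igtp at 236.45, Tgtp2 at 209.56, Iigp1 at 121.61, Tgtp1 at 110.29 and Irgm2 at 86.83. Neighbours in this order overlapped in their range over libraries in every case. Within a library the order held in 7 of 7 libraries for Tgtp2 above Iigp1, in 5 of 7 for Igtp above Tgtp2, and in 6 of 7 for each of the other neighbouring pairs.

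Of the regulatory members, Irgm1, which protects mice against mycobacteria and Listeria, was listed at 317.49 and 416.62 FPKM in wild type and 499.91 and 399.55 in GdX-deficient spleen at 90 min, and at 193.03 and 300.17 in wild type and 216.04 in the deficient spleen at 6 h. All 3 values at 6 h lay below all 4 at 90 min, and the genotypes overlapped at both times. Irgm2, a regulator on the Golgi apparatus, was listed at 69.66 and 105.89 FPKM in wild type and 117.9 and 116.79 in deficient spleen at 90 min, and at 43.93 and 70.3 in wild type and 83.36 in the deficient spleen at 6 h. At each time the deficient values of Irgm2 lay above both wild-type values. Igtp, a regulator on the endoplasmic reticulum and lipid droplets, was listed at 220.29 and 271.01 FPKM in wild type and 320.28 and 230.66 in deficient spleen at 90 min, and at 197.3 and 230.48 in wild type and 185.11 in the deficient spleen at 6 h. The genotypes overlapped in Igtp at 90 min, and the deficient spleen was lowest at 6 h.

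Of the effector members, Iigp1, the IRG whose structure and loading onto vacuoles are best studied, was listed at 96.62 and 124.02 FPKM in wild type and 139.57 and 91.57 in deficient spleen at 90 min, and at 122.7 and 160.39 in wild type and 116.42 in the deficient spleen at 6 h. Ifi47 was listed at 376.88 and 469.07 FPKM in wild type and 514.9 and 363.48 in deficient spleen at 90 min, and at 327.99 and 422.92 in wild type and 280.59 in the deficient spleen at 6 h. In both genes the deficient libraries at 90 min spanned the wild-type pair, and the deficient library at 6 h lay below both wild-type libraries.

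Tgtp1 and Tgtp2 are neighbouring copies of the gene for the effector Irgb6. Tgtp1 was listed at 83.67 and 115.49 FPKM in wild type and 138.69 and 96.8 in deficient spleen at 90 min, and at 90.4 and 147.69 in wild type and 99.31 in the deficient spleen at 6 h. Tgtp2 was listed at 179.49 and 220.35 FPKM in wild type and 282.76 and 234.0 in deficient spleen at 90 min, and at 149.36 and 196.76 in wild type and 204.21 in the deficient spleen at 6 h. The genotypes overlapped in Tgtp1 at both times, whereas all deficient values of Tgtp2 lay above the wild-type values of the same time. The aligned transcripts were 99.3% identical and 89.4% of the 50-base stretches of Tgtp1 also occur in Tgtp2, so how fragments were divided between the copies is uncertain. Added together, the copies had 263.16 and 335.84 FPKM in wild type and 421.45 and 330.8 in deficient spleen at 90 min, and 239.76 and 344.45 against 303.52 at 6 h, and in the sum the genotypes overlapped at both times. Irgm2 and Igtp share less: 5.8% of the 50-base stretches of Irgm2 occur in Igtp, and the other member pairs share none.

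**Figure D2:**
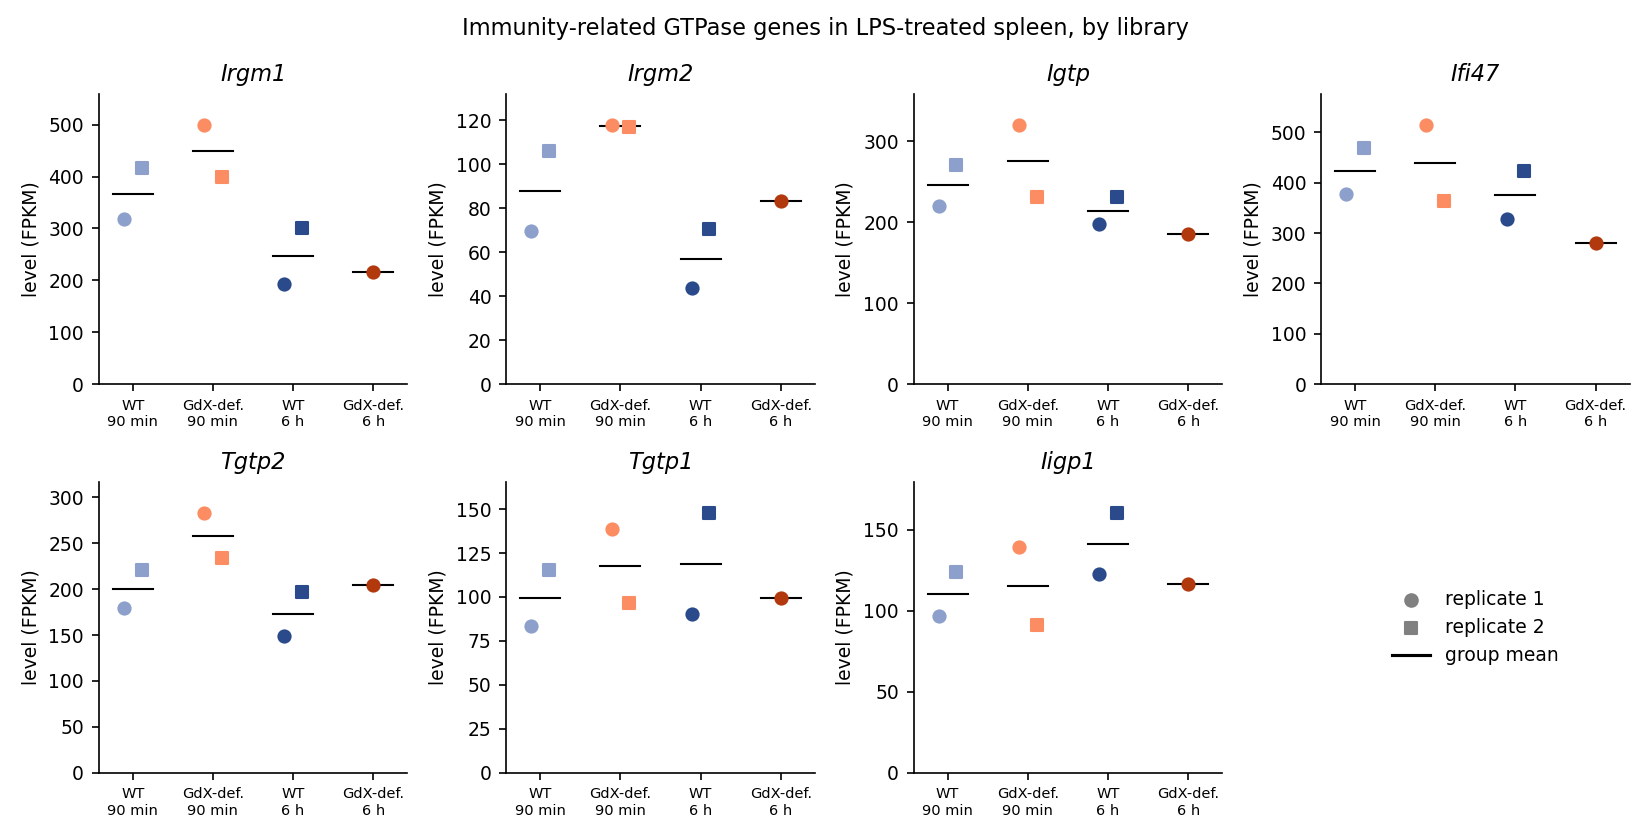
FPKM of the 7 members in each of the 7 libraries, one panel per gene; columns are groups by genotype and time, circles and squares are the first and second library of a group and short lines its mean; the 6 h GdX-deficient group is 1 library. Members span 1.73-fold (Igtp) to 2.68-fold (Irgm2) between their lowest and highest library, and the deficient points stand above the wild-type points at both times in Irgm2 and Tgtp2.

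At 90 min all 7 members had a higher mean log2 level in GdX-deficient than in wild-type spleen, and none passed limma's test across all genes (Benjamini-Hochberg adjusted p under 0.05), which 0.0176% of 11378 genes passed. The median log2 difference of the members was 0.23 against 0.07 over all genes, of which 56.5% were higher. Irgm2 had the largest difference, 0.45 on the log2(FPKM + 1) scale (SE 0.31, 95% interval -0.25 to 1.14, limma adjusted p = 0.639). Without the first or second wild-type library at 90 min it was 0.15 or 0.74. Tgtp2 followed at 0.37 (SE 0.27, adjusted p = 0.647 by limma) and Irgm1 at 0.30 (SE 0.30, adjusted p = 0.706 by limma). Without the first wild-type library these were 0.22 and 0.10, and without the second 0.52 and 0.49. Irgm2 and Tgtp2 were the 2 of 7 members whose genotypes did not overlap, with the deficient values higher, against 24.1% of all genes. For Ifi47 and Iigp1 the differences were 0.04 and 0.05. Some marker sums also did not overlap between genotypes at 90 min. NK-cell markers were at 122.4 to 140.8 FPKM in wild type and 149.2 to 177.9 in deficient spleen. Lower in deficient spleen were stroma (21.8 to 25.2 against 58.5 to 100.3), fat (17.3 to 18.3 against 37.9 to 51.0), monocyte and dendritic cell markers. The part of these in the members' differences was not tested. Without the second deficient library at 90 min, which had the highest neutrophil sum, the differences ranged from 0.29 for Ifi47 to 0.51 for Tgtp2, and without the first one from -0.26 for Iigp1 to 0.44 for Irgm2; the part of the neutrophils in these values was not tested.

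At 6 h, with a single GdX-deficient library that is assumed to vary like the other groups, the members' differences had both signs. Irgm2 (log2 difference 0.58, SE 0.38, limma adjusted p = 0.336) and Tgtp2 (0.25, SE 0.33, limma adjusted p = 0.627) were higher in the deficient library than in both wild-type libraries. Without the first or second wild-type library at 6 h, Irgm2 differed by 0.24 or 0.91 (limma adjusted p = 0.774 and 0.0759) and Tgtp2 by 0.05 or 0.45. With the trend on transcript length removed Tgtp2 differed by -0.07, and the lowest value of Irgm2 over its alternatives was 0.17. Ifi47 (-0.41), Iigp1 (-0.27) and Igtp (-0.20) were lower than in both wild-type libraries, and Tgtp1 (-0.22) and Irgm1 (-0.16) lay between them. Tgtp1 and Tgtp2 had opposite signs, but they are near-identical copies and how fragments were divided between them is uncertain. The differences of Irgm1, Igtp and Tgtp1 turned positive with quantile normalization (0.17, 0.09 and 0.01) and those of Irgm1, Igtp, Iigp1 and Tgtp1 with values rescaled without globin genes (0.12, 0.07, 0.01 and 0.06). None of the 7 passed the test, which 3.96% of all genes passed, and 5 of 7 did not overlap, against 80.3% of all genes. The median of the members was -0.20 where the median of all genes was 0.32; with quantile normalization these medians were 0.09 and -0.02, so that the members' median lay above that of all genes, and without globin genes they were 0.07 and 0.55.

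With both times in 1 model and time as a covariate (3 deficient against 4 wild-type libraries), Irgm2 came nearest to the threshold. Its genotype difference was 0.50 (SE 0.24, 95% interval -0.03 to 1.02, limma adjusted p = 0.202), and that of Tgtp2 was 0.32 (SE 0.21, limma adjusted p = 0.327). These were again the 2 of 7 members in which the deficient values lay above the wild-type values at both times, against 19% of all genes. The other 5 members lay between -0.14 (Ifi47) and 0.12 (Irgm1), and those of Ifi47 and Iigp1 turned positive with both rescalings. No member passed the test, which 0.0439% of all genes passed, and the share of all genes at an unadjusted p under 0.05 was 27%. Across 11180 genes the genotype differences of this model rose with transcript length (Spearman's rho 0.407, a description across genes, which are not independent replicates). Irgm2 has the longest mean transcript of the members, at 3459 nt, and Ifi47 the shortest, at 1718 nt. With the length trend removed the difference of Irgm2 was 0.24 (limma adjusted p = 0.413) and that of Tgtp2 was 0.13 (limma adjusted p = 0.676).

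**Figure D3:**
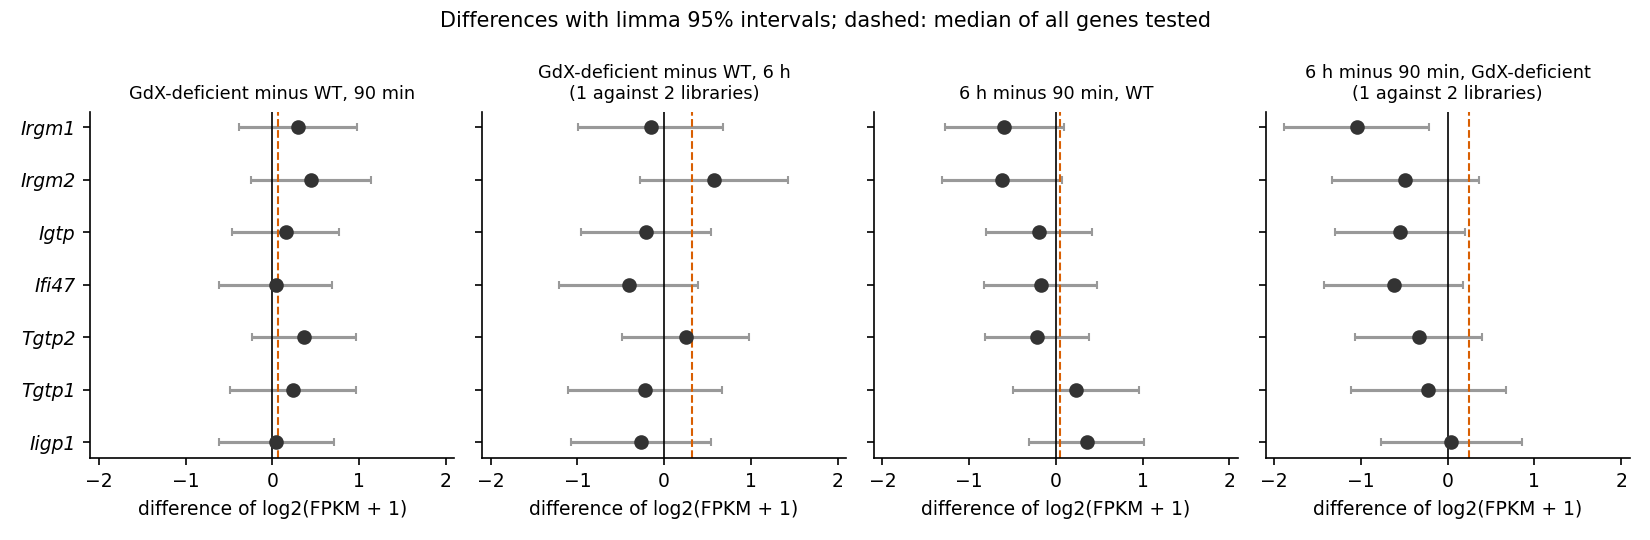
Log2 differences of the 7 members with 95% intervals from limma, one panel for each of 4 comparisons, in log2(FPKM + 1); solid lines mark 0 and dashed lines the median of all genes tested. All intervals include 0 except that of Irgm1 for time in GdX-deficient spleen (-1.88 to -0.21), whose adjusted p was 0.445, and the negative 6 h genotype differences of Irgm1, Igtp, Iigp1 and Tgtp1 turn positive when globin genes are left out of the scaling.

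From 90 min to 6 h in wild type, the regulatory members Irgm2 and Irgm1 had the most negative log2 differences, -0.62 (SE 0.31, limma adjusted p = 0.22) and -0.59 (SE 0.30, limma adjusted p = 0.231). Iigp1 (0.36) and Tgtp1 (0.23) were the 2 members with a positive one, and that of Tgtp1 turned to -0.12 without the second wild-type library at 6 h. Igtp, Tgtp2 and Ifi47 lay between -0.21 and -0.17. None of the 7 passed, against 10.7% of all genes; Irgm2 passed in 1 of its alternatives, without the second wild-type library at 6 h (-0.95, limma adjusted p = 0.0497). Without the first or second wild-type library at 6 h Irgm1 was -0.28 or -0.91 and Irgm2 -0.29 or -0.95. Irgm1 was the 1 of 7 members whose times did not overlap, against 57.9% of all genes. The wild-type libraries at 6 h also had the lowest sums of monocyte, B-cell, T-cell, red pulp macrophage and dendritic cell markers (for the last 2, 280.4 to 295.7 against 511.7 to 657.2 FPKM and 18.7 to 21.6 against 33.6 to 42.1 in the other libraries), and the part of these in the time differences was not tested.

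In GdX-deficient spleen the time difference of Irgm1 was -1.05 (SE 0.37, unadjusted p = 0.0196, adjusted p = 0.445 by limma). In 5 of 7 members the single 6 h library lay below both 90 min libraries, against 15.8% of all genes, and in Iigp1 and Tgtp1 it lay between them. The median of the members was -0.49 where that of all genes was 0.25, and 0 genes of the 11378 passed here, with 910 at an unadjusted p under 0.05. The time differences of the genotypes were not shown to differ: in the interaction none of the 7 members passed, against 0.0703% of all genes, and the smallest adjusted p of a member was 0.861 (limma, Ifi47, -0.45).

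The balance within the family can be read inside each library, where library scaling cancels. A trend on transcript length does not cancel. Irgm2 (3459 nt) is longer than Igtp (2022 nt), and Iigp1 (3024 nt) is longer than Irgm1 (2259 nt). These ratios were chosen after the values were seen and are given with no test. How often other pairs of genes separate the times in this way was not counted. Iigp1 stood at 30.4% and 29.8% of the level of Irgm1 in wild type and 27.9% and 22.9% in deficient spleen at 90 min, and at 63.6% and 53.4% in wild type and 53.9% in deficient spleen at 6 h. All 3 libraries at 6 h lay above all 4 libraries at 90 min. The 3 regulatory members made up 45.2% to 48.7% of the summed FPKM of the family at 90 min and 38.6% to 40.9% at 6 h. Irgm2 stood at 31.6% and 39.1% of Igtp in wild type and 36.8% and 50.6% in deficient spleen at 90 min, and at 22.3% and 30.5% in wild type and 45.0% in deficient spleen at 6 h. Here the genotypes overlapped at 90 min and the deficient library was higher at 6 h. Tgtp1 made up 29.3% to 34.4% of the sum of Tgtp1 and Tgtp2 at 90 min and 37.7% and 42.9% in wild type against 32.7% in deficient spleen at 6 h, a ratio that rests on how fragments were divided between these near-identical copies.

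**Figure D4:**
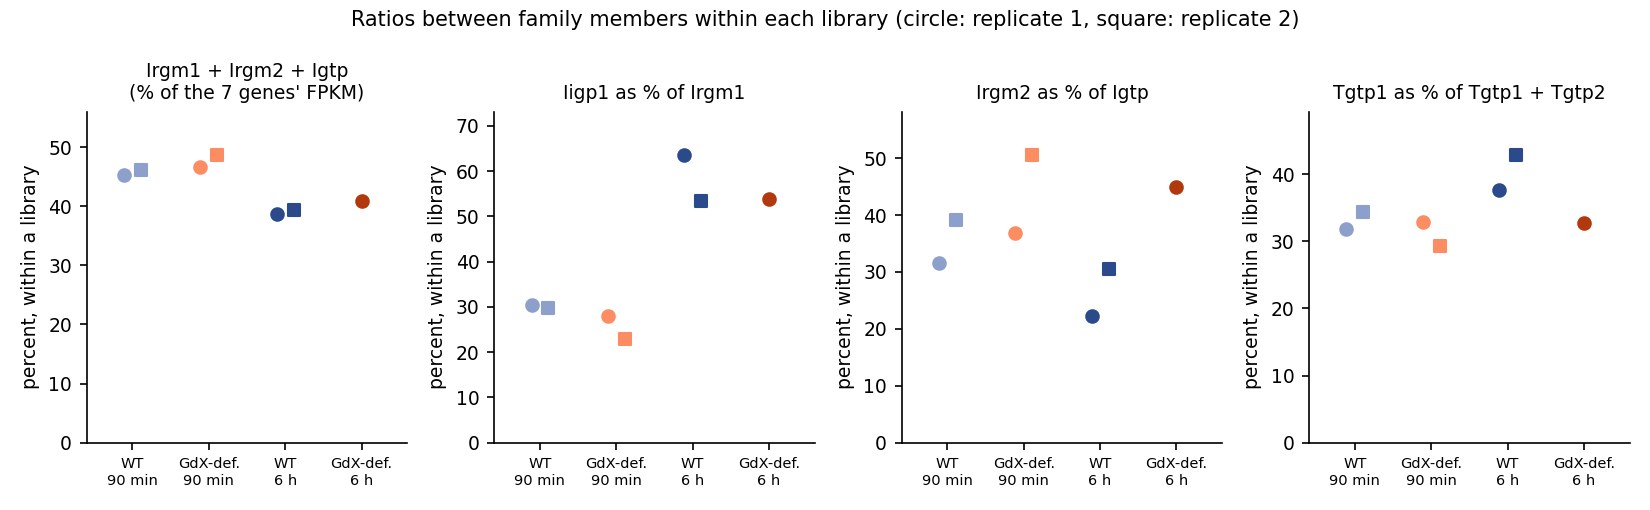
Ratios between members within each library, in percent, for groups by genotype and time; circles and squares are the first and second library of a group. Iigp1 relative to Irgm1 separates the times in both genotypes (22.9% to 30.4% at 90 min, 53.4% to 63.6% at 6 h), as does the share of Irgm1, Irgm2 and Igtp in the family sum.

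The summed FPKM of the family was 1344.1 and 1722.4 in wild type and 2014.0 and 1532.8 in deficient spleen at 90 min, and 1124.7 and 1528.7 in wild type and 1185.0 in the deficient spleen at 6 h. The groups overlapped between genotypes at both times and between times in wild type. Replicates of a group differed across the whole family: all 7 members were lower in the first than in the second wild-type library at 90 min (median log2 difference -0.36) and at 6 h (-0.40), and all 7 were higher in the first than in the second deficient library at 90 min (0.47). Across all genes, 61.9%, 68.3% and 69.2% were lower in the first library of those pairs. The wild-type replicate differences followed transcript length, with a Spearman's rho over 11180 genes of -0.446 for the 90 min pair, -0.591 for the 6 h pair and -0.166 for the deficient pair.

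Ifng encodes interferon gamma, the main inducer of IRG genes. It was listed at 9.53 and 10.07 FPKM in wild type and 18.68 and 7.86 in deficient spleen at 90 min, and at 35.79 and 42.32 in wild type against 1.99 in the deficient spleen at 6 h. It rose in wild type (log2 difference 1.89, SE 0.38, limma adjusted p = 0.0167) and was lower in the deficient library at 6 h (-3.74, SE 0.46, limma adjusted p = 0.0082). Both calls were lost when genes with low values were kept (limma adjusted p = 0.072 and 0.0548). Of the cells that can make interferon gamma, 6 NK-cell markers summed to 210.2 and 152.5 FPKM in wild type and 194.2 in deficient spleen at 6 h, and 5 T-cell markers to 116.1 and 90.6 against 203.7. The members' genotype differences at 6 h ran from -0.41 to 0.58. Irf1, an interferon-induced transcription factor, was listed at 319.92 and 366.35 FPKM in wild type against 225.09 in the deficient spleen at 6 h (-0.60, limma adjusted p = 0.241). Of 16 genes of the interferon gamma pathway, 1 was higher and 1 lower by the test at 6 h (2.91% and 1.05% of all genes), Ciita (2.79, limma adjusted p = 0.0382) and Ifng. Ciita, the master regulator of MHC class II genes and itself abundant in B cells, lost its call with low genes kept (adjusted p = 0.112 by limma), and the part of the higher B-cell sum of that library in its difference was not tested. In wild type over time, where 4.39% of all genes rose and 6.32% fell, 2 rose, Ifng and the IL-12 receptor gene Il12rb1 (2.07, limma adjusted p = 0.0065), and the IL-12 subunit gene Il12b fell by 3.79 (limma adjusted p = 0.017, and 0.0995 with low genes kept). None of the 16 passed for genotype at 90 min with all 7 libraries, where Il12b had a difference of -2.08 and passed in 4 of 16 alternatives (limma adjusted p from 0.0272 to 1). Further genes of the list passed only under alternatives. At 6 h these were Socs1 (-1.37), a feedback inhibitor of cytokine signalling, in 6 of 14, and the kinase genes Jak1 (1.25) in 2 and Jak2 (0.68) in 1. Over time in wild type Nlrc5 passed in 2 of 16 and Ifngr1, Jak1 and Jak2 in 1 of 16 each, and Il12rb2 in 1 of 15. Over time in deficient spleen Ifng and Socs1 passed in 4 of 14 each and Il12b in 3. Over both times Ciita passed in 2 of 15 and Socs1 and Il12b in 1 each.

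**Figure D5:**
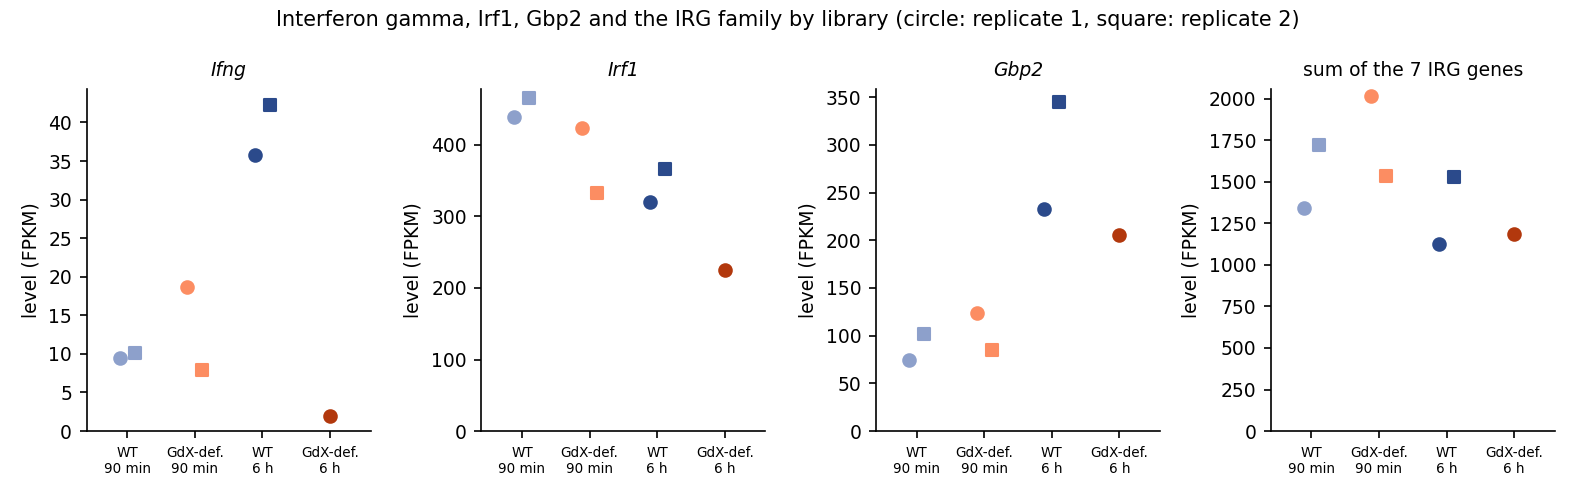
FPKM of Ifng, Irf1, Gbp2 and the sum of the 7 IRG genes in each library, by genotype and time; circles and squares are the first and second library of a group. The GdX-deficient library at 6 h has 1.99 FPKM of Ifng, below every other library, and a family sum of 1185.0, between the wild-type sums of 1124.7 and 1528.7 at the same time.

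Of the 14 tested genes of the type I interferon pathway, 4 fell from 90 min to 6 h in wild type and none rose. Ifnb1, the gene of interferon beta, fell by 2.86 (limma adjusted p = 0.0223), Ifna2 by 1.62 (limma adjusted p = 0.0446), and the antiviral genes Ifit1 by 1.79 (limma adjusted p = 0.0048) and Ifit3 by 1.00 (limma adjusted p = 0.0341). The median of this list was -0.61, against 0.05 over all genes and -0.20 for the IRG members. These counts stand against 6.32% of all genes that fell and 4.39% that rose. The calls of Ifnb1, Ifna2 and Ifit3 were each lost with low genes kept (limma adjusted p = 0.116, 0.146 and 0.0524). That of Ifna2 passed in 10 of 14 alternatives, and was also lost with quantile normalization, without globin genes and with no variance trend (0.0896, 0.0573 and 0.0558 by limma). That of Ifit3 passed in 10 of 16, and was also lost with only the 4 libraries compared (0.0544 by limma), without either wild-type library at 90 min (0.206 and 0.229) and without either deficient library at 90 min (0.0559 and 0.0556). None of the 14 passed for genotype at either time with all 7 libraries. Under the alternatives Ifnb1 (-1.98) passed in 4 of 15 at 90 min (lowest limma adjusted p 0.023) and Stat2 (1.14), a transcription factor of the type I pathway, in 2 of 16. At 6 h the kinase gene Tyk2 (1.62) passed in 3 of 14 (lowest 0.00142 by limma) and Stat2 (0.65) in 1. Tyk2 also passed in 1 of 15 over both times and in 1 of 16 for time in wild type, Rsad2 in 4 of 16 for time in wild type, and Ifit1 in 4 of 14 for time in deficient spleen. Of 16 genes of the autophagy conjugation system and its partners, which place IRG proteins on vacuoles, only Gabarapl2, an Atg8-type protein, passed in any comparison fitted on all 7 libraries with the settings of the main analysis: it fell by 1.05 over time in wild type (limma adjusted p = 0.0228, where 6.32% of all genes fell, and 0.181 or 0.146 without the first or second wild-type library at 90 min). For time in wild type the autophagy receptor gene Sqstm1 (-0.91, limma adjusted p = 0.0512) passed in 4 of 16 alternatives, Trim21 (-0.93) and Map1lc3a (-1) in 3 each and Rabgef1 (-0.57) in 1. Gabarapl2 (0.89) also passed in 1 of 14 for genotype at 6 h. Atg5, which the conjugation step needs, was listed at 11.1 to 16.27 FPKM at 90 min and 18.05 to 19.79 at 6 h, without passing.

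Guanylate-binding proteins are a sister family of interferon-inducible GTPases that act on the same vacuoles. Of 11 genes on the list, 10 were in the expression table and 9 were tested. Gbp2 rose over time in wild type, from 74.9 and 101.93 to 232.67 and 345.03 FPKM (1.69, limma adjusted p = 0.0122; 0.0574 with low genes kept), and was listed at 205.27 in the deficient library at 6 h. It was the 1 of the 9 to pass in the 6 comparisons with the settings of the main analysis, and 4.39% of all genes rose in that one. Under the alternatives Gbp8 (0.98) passed for genotype at 6 h in 2 of 14 (lowest limma adjusted p 0.0153) and Gbp10 (0.82) in 1, and for time in wild type Gbp10 (1.11) and Gbp6 (0.67) passed in 1 of 16 each, without the first wild-type library at 6 h (0.00271 and 0.0499 by limma). Gbp5 was listed at 111.44 and 200.6 FPKM in wild type and 100.36 in deficient spleen at 6 h (-0.57, limma adjusted p = 0.384). At 90 min all 9 were higher in the deficient group, with a median of 0.45, and none passed; without the first deficient library the difference of Gbp2 was -0.04.

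A further 12 IRG or IRG-like genes were measured, among them the very large GTPases, and all 12 also had a higher mean log2 level in deficient than in wild-type spleen at 90 min, with a median of 0.39 and none past the threshold; the sign turned for Gm4841 with quantile normalization (-0.12), with the length trend removed (-0.06) and without the second deficient or second wild-type library at 90 min (-0.04 and -0.17), for Gm12250 without the first deficient library (-0.19) and for Irgq without the second (-0.06), and Gm12250 came to 0.00 without the first wild-type library at 90 min. Their genotypes did not overlap at 90 min in 8 of 12, with the deficient values higher, against 24.1% of all genes in that direction. Across 11180 genes the genotype differences at 90 min rose with transcript length (Spearman's rho 0.429). Where a length was found, the mean transcripts of these genes run from 1835 nt (Irgc1) to 8901 nt (Gm4070). The part of length in this count was not tested. The most positive was 9930111J21Rik1, listed at 2.27 and 8.71 FPKM in wild type and 26.99 and 47.31 in deficient spleen at 90 min (2.71, SE 0.78, limma adjusted p = 0.551). Without the first or second wild-type library at 90 min this was 1.92 or 3.49. It passed in 4 of 16 alternatives: with only the 4 libraries compared (limma adjusted p = 0.000118, the lowest), without the second wild-type library at 90 min, and without the first or the second wild-type library at 6 h. At 6 h its difference was 3.04 (limma adjusted p = 0.0893), and it passed in 4 of 14 alternatives, with the lowest p without the second wild-type library at 6 h (4.36, limma adjusted p = 7.22e-06); without the first the difference was 1.71. With both times in the model its difference was 2.84 (SE 0.57, limma adjusted p = 0.0949, and between 0.0166 and 0.568 over its 15 alternatives, of which 4 passed, the lowest without the second wild-type library at 90 min).

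The very large GTPase Gvin1 was listed at 51.07 and 75.41 against 115.4 and 120.24 FPKM at 90 min and reached 1.13 over both times (SE 0.28, limma adjusted p = 0.101), and its relative Gm4070 reached 1.29 (SE 0.30, limma adjusted p = 0.101). With the length trend removed these were 0.61 and 0.76. Gvin1 and Gm4070 passed over both times without the first deficient library at 90 min (limma adjusted p = 0.0443 and 0.0446) and without the second wild-type library at 90 min (0.0401 and 0.0312), in 2 of 15 alternatives each. At 6 h their differences were 1.46 and 1.57 (limma adjusted p = 0.0778 and 0.0825), and each passed in 4 of 14 alternatives, with the lowest p without the second wild-type library at 6 h (0.000809 and 0.000932). These genes have near-identical relatives, so their counts may be shared. Gm12250 (Irgb10), also abundant, was listed at 115.63 and 131.26 FPKM in wild type and 158.31 and 108.15 in deficient spleen at 90 min, and its genotype difference over both times was -0.13, which turned positive with quantile normalization (0.06), without globin genes (0.11) and without the deficient library at 6 h (0.09). Over both times, F830016B08Rik (0.48), Gm4951 (0.20), Gm12185 (0.20), Gm5431 (0.73), 9930111J21Rik2 (0.74), Irgc1 (0.61) and Irgq (0.69) were positive and Gm4841 (-0.09) negative, none past the threshold. Gm12185 turned negative with quantile normalization (-0.08) and with the length trend removed (-0.17). Gm4841 turned positive without globin genes (0.12), without the deficient library at 6 h (0.05) and without the first wild-type library at 6 h (0.01). Over both times Irgc1 and Irgq passed in 1 of 12 and 1 of 14 alternatives, without the first deficient library at 90 min (limma adjusted p = 0.0375 and 0.0307). At 6 h, where none of these passed, 9930111J21Rik2 (1.35) and Irgq (1.16) passed with the replicate block (limma adjusted p = 0.0413 and 0.0219) and without the second wild-type library at 6 h (0.00285 and 0.0449). At that time Irgc1 (0.81) also passed with the block (limma adjusted p = 0.0456), and Gm5431 (0.68) without the second wild-type library at 6 h (0.0436 by limma).

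Among 7855 genes with a mean of at least 5 FPKM, named genes most like the mean log2 level of the 7 members over the 7 libraries were Parp9 (Pearson r 0.994), an interferon-induced ADP-ribosyltransferase family gene, Apaf1 (0.963), the scaffold of the apoptosome, B4galt5 (0.957), a galactosyltransferase, Ifih1 (0.956), the sensor of double-stranded RNA also called MDA5, and Sp140 (0.952), a nuclear body gene. These correlations describe 7 libraries that share depth and replicate differences, and carry no p. Parp9 was listed at 81.92 and 109.47 FPKM in wild type and 141.75 and 99.66 in deficient spleen at 90 min, and at 63 and 97.37 against 76.46 at 6 h, the order of libraries being close to that of the family.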

How the data were processed

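The deposited values are FPKM per gene and library, made by the authors; the submitters' processing notes name HISAT2 2.0.4, Bowtie2, RSEM and the build GRCm38.p5, without their roles. RNA was selected by oligo dT or depleted of ribosomal RNA, per the labels' protocols, which do not say which, and sequenced on a BGISEQ-500. FPKM values were not rescaled in the main results. Whole fragments were estimated from the steps of low FPKM values only to gauge depth. The precision of a difference is limited by having 1 or 2 libraries a group.

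Of 17920 genes, the 11378 with a mean of at least 1 FPKM were tested on log2(FPKM + 1) with limma 3.58.1 in R 4.3.3, with empirical Bayes moderation and a variance trend, two-sided, with Benjamini-Hochberg adjustment over all genes tested and a threshold of 0.05. A fold change on this scale understates that of low genes. One mean per group was fitted over all 7 libraries, leaving 3 residual degrees of freedom, and the lone GdX-deficient library at 6 h was assumed to vary like the other groups. A second model had genotype and time as terms. Each library is taken as 1 mouse from the design text. The members and the gene lists were chosen with earlier results of these data known. Named are all members, the further IRG-type genes, the targeted gene, Ifng, Ifnb1, Irf1, Gbp2, Gbp5, Atg5, genes of the pathway lists that passed the test (at most 5 a list and comparison) and the 5 genes most like the family mean, leaving out predicted genes and receptor segments; 1 gene of this rule is not reported here. Alternatives were another pseudocount and filter, quantile normalization, rescaling without globin genes, no variance trend, a replicate block, removal of a trend on GENCODE M21 transcript length, only the libraries compared, and each library left out in turn. The fits were tested on simulated data first, with 200 of 11378 genes changed. A log2 change of 1 was recovered in 10% of them for genotype at 90 min and in 0% at 6 h. It was recovered in 49% over both times, 4.5% for time in wild type and 0% for time in deficient spleen and the interaction. A log2 change of 2 was recovered in 38.5% for the interaction and in 91% to 99.5% for the other comparisons. A member that did not pass may still differ. Motif searches used Python 3.11.15.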

Additional observations from a re-analysis of the deposited data

Results flagged for a closer look

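Of 34 genes looked at, 4 had groups that did not overlap under both of 2 matched contrasts, with opposite signs: 3 for time in each genotype, where 9.14% of all genes did so, and 1 for genotype at each time, where 7.79% did. From 90 min to 6 h, Ifng differed by 1.89 (log2) in wild type and -2.14 in GdX-deficient spleen, an interaction of -4.03 (limma adjusted p = 0.0626). Ciita differed by -0.71 in wild type and 0.96 in deficient spleen, an interaction of 1.67 (limma adjusted p = 0.5). Gm44504, the entry that overlaps Ubl4a, differed by 1.18 and -0.53, an interaction of -1.71 (limma adjusted p = 0.365). The genotype difference of Il12rb1 was 0.37 at 90 min and -0.53 at 6 h, an interaction of -0.91 (limma adjusted p = 0.619). None of these interactions passed the test with all 7 libraries, and each rests on the single deficient library at 6 h. Under the alternatives that of Ifng passed in 5 of 14, with the replicate block and without any 1 wild-type library (lowest limma adjusted p 0.000319), and that of Gm44504 in 1 of 14, without the second wild-type library at 6 h (0.0349 by limma). Those of Ciita and Il12rb1 passed in none of their 14. In the 7 IRG members the signs also differed in places (Tgtp1 over time, 0.23 in wild type and -0.22 in deficient spleen; Irgm1, Igtp, Iigp1, Tgtp1 and Ifi47 for genotype at 90 min and 6 h), with groups that overlapped under at least 1 of the contrasts.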

How the results depend on the processing

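No member passed the test in any comparison, and over 623 values of members under the alternatives, 575 kept their sign and side of the threshold, 47 changed sign and 1 passed. With quantile normalization the 6 h genotype differences of Irgm1, Igtp and Tgtp1 became 0.17, 0.09 and 0.01, and those of Iigp1 and Ifi47 over both times 0.11 and 0.13. Rescaled without globin genes, the 6 h differences of Irgm1, Igtp, Iigp1 and Tgtp1 became 0.12, 0.07, 0.01 and 0.06, those of Iigp1 and Ifi47 over both times 0.16 and 0.10, and the time difference of Iigp1 in deficient spleen -0.01. With the length trend removed, Iigp1 at 90 min became -0.07, Tgtp2 at 6 h -0.07, Igtp and Tgtp1 over both times -0.05 and -0.14, Iigp1 for time in deficient spleen -0.22 and the interaction of Irgm2 -0.12. The causes of these changes were not tested.

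Leaving out 1 library at a time gave these ranges where a sign turned. For genotype at 90 min, Ifi47 ranged from -0.21 to 0.29, Igtp from -0.08 to 0.39, Iigp1 from -0.26 to 0.35 and Tgtp1 from -0.02 to 0.49, each lowest without the first deficient library. At 6 h, Irgm1 ranged from -0.47 to 0.16 and Tgtp1 from -0.57 to 0.13. Over both times, Ifi47 ranged from -0.31 to 0.04, Igtp from -0.14 to 0.15, Iigp1 from -0.26 to 0.05, Irgm1 from -0.03 to 0.30 and Tgtp1 from -0.12 to 0.24. For time in wild type, Ifi47 ranged from -0.36 to 0.01 and Tgtp1 from -0.12 to 0.58. For time in deficient spleen, Iigp1 ranged from -0.26 to 0.34 and Tgtp1 from -0.48 to 0.04, and in the interaction Irgm2 from -0.20 to 0.46 and Tgtp2 from -0.32 to 0.08. Without a sign turning, these moved by over 1.5 times. For genotype at 90 min Irgm1 ranged from 0.10 to 0.49, Irgm2 from 0.15 to 0.74 and Tgtp2 from 0.22 to 0.52. At 6 h Irgm2 ranged from 0.24 to 0.91, Tgtp2 from 0.05 to 0.45, Ifi47 from -0.59 to -0.22, Igtp from -0.31 to -0.09 and Iigp1 from -0.46 to -0.08. For time in wild type Irgm1 ranged from -0.91 to -0.28, Igtp from -0.34 to -0.05, Iigp1 from 0.16 to 0.55 and Tgtp2 from -0.41 to -0.02. For time in deficient spleen Ifi47 ranged from -0.87 to -0.37, Igtp from -0.79 to -0.32 and Tgtp2 from -0.47 to -0.20. The interactions of Ifi47, Igtp, Iigp1, Irgm1 and Tgtp1 ranged from -0.80 (Tgtp1) to -0.01 (Iigp1). Without the deficient library at 6 h there is no genotype difference at 6 h, no time difference in deficient spleen and no interaction.

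The number of all genes past the threshold, 2 for genotype at 90 min, 450 at 6 h (331 higher, 119 lower), 5 over both times, 1218 for time in wild type (499 higher, 719 lower), 0 for time in deficient spleen (910 at an unadjusted p under 0.05) and 8 in the interaction, moved far more. In the same order, the counts with 1 library left out were 2 to 169, 624 to 3010, 2 to 1660, 455 to 1755, 0 to 233 and 0 to 225. The most genes passed without the second wild-type library at 6 h, except over both times, where 1660 passed without the first deficient library and 240 without the second wild-type library at 90 min. Without the first wild-type library at 6 h, 158 passed at 90 min, 230 for time in deficient spleen and 151 in the interaction, and without the first or second wild-type library at 90 min, 455 or 522 passed for time in wild type. With the length trend removed they were 0 at 90 min, 1142 at 6 h, 2423, 3 and 45 for time in wild type, time in deficient spleen and the interaction, and with genes of low values kept 90 at 6 h and 635, 22 and 3. A filter at a mean of 5 FPKM gave 233 at 6 h and 0 in the interaction, a pseudocount of 0.1 gave 0 and no variance trend 2 in the interaction. Quantile normalization gave 270 at 6 h (166 higher, 104 lower) and 4 in the interaction. Rescaling without globin genes gave 253 at 6 h (214 higher, 39 lower), 708 for time in wild type (191 higher, 517 lower) and 0 in the interaction. With only the 4 libraries compared, 184 genes passed for genotype at 90 min.

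The labels do not tie same-numbered libraries to each other, and they were not treated as pairs. The differences between first and second libraries correlated across genes at 0.768 between both wild-type groups, -0.12 between the 90 min genotypes and 0.08 between deficient spleen at 90 min and wild type at 6 h. With a replicate block, 3383 genes passed at 6 h, 12 over both times, 2345 for time in wild type, 37 for time in deficient spleen, 80 in the interaction and 2 at 90 min, and no member passed; for time in wild type the smallest adjusted p of a member by limma was 0.118 with the block. Crossing the numbers at 90 min, chosen after seeing the data, gave 2 genes and 0 members.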
